A study of Mus musculus with 16 samples.

Results

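Chaperones of the cytosol and the mitochondrion were followed in the mouse uterus as 38 genes, chosen by name and matched to the gene names of the probes: the Hsp70 and Hsp110 family, Hsp90, small heat shock proteins, chaperonins, Hsp40 (DnaJ) proteins, co-chaperones of steroid receptors, and 2 regulators of the heat shock response. A probe name matched 37 of the 38, through 52 of 55681 probes, out of 25862 genes tested in all; Hspa1b was not analysed here. All mice had been ovariectomised at 4 weeks of age and were treated 2 to 3 weeks later. Mice of one genotype were wild type (WT); those of the other, Arg260, had an altered estrogen receptor alpha that is named for this arginine, and the labels do not state how the residue was changed nor name a promoter or Cre line. Each genotype received castor oil under the skin, either alone (0 ug/kg, called PLB) or with 8 ug/kg of 17beta-estradiol (E2), and uteri were taken 6 h later. Each of the 4 combinations of genotype and treatment was measured in 4 samples, on 1 one-colour Agilent array per sample from 200 ng of total RNA.

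A level is the log2 of a probe's processed signal minus the log2 of the 75th percentile of its own array, so that 0 is that percentile; levels of different probes are not read as relative amounts of RNA. A change is the mean E2 level minus the mean PLB level within a genotype, with n = 4 arrays per group, its standard error (SE) from one limma fit to all 16 arrays, and a p-value adjusted by Benjamini-Hochberg over all 25862 genes. Genes with an adjusted p below 0.05 count as called, and only these are said to have risen or fallen. Between 36505 and 41890 of the 59305 non-control spots on an array were well above background, 0 were saturated, and all 37 chaperone genes were well above background on all 16 arrays. All 10 markers of epithelium, all 10 of stroma and all 10 of smooth muscle were well above background on all arrays as well. Whether each sample came from an animal of its own is not stated, so that p-values measure the spread between these samples, which may be technical. In whole tissue, fewer cells of a type and less RNA per cell cannot be told apart.

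Molecular chaperones bind unfolded stretches of proteins and release them in cycles driven by ATP. Hsp40 proteins deliver clients to Hsp70, Hsp110 proteins and Bag domain proteins exchange its nucleotide, and the ring-shaped chaperonins (CCT in the cytosol, Hsp60 with its lid Hsp10 in the mitochondrion) enclose clients such as actin and tubulin or imported mitochondrial enzymes. Steroid receptors, the estrogen receptor among them, are clients of this machinery: Hsp70 and Hsp40 pass the receptor through the adaptor Hop (Stip1) to Hsp90, which holds it with p23 (Ptges3) and an immunophilin (Fkbp4 or Fkbp5) in a form able to bind hormone.

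E2 raised most of the chaperone genes in both genotypes. The genes were chosen with earlier results of these data known. Their counts beside the shares of all genes are therefore a description and no test. In WT 33 of the 37 rose, 1 fell and 3 were not called, while of all genes 31.9% rose and 31.7% fell (63.5% called in all). In Arg260 33 rose, 0 fell and 4 were not called, beside 33.6% of all genes that rose and 30.7% that fell (64.3% called). Among genes well above background on all 16 arrays, as the 37 are, 35.3% rose and 32.5% fell in WT, and the Arg260 shares were 37.1% and 31.6%. Their median change was 1.13 in WT and 1.11 in Arg260 on the log2 scale, and that of all genes -0.02 and 0.02. All E2 arrays lay above all PLB arrays for 32 of the 37 in WT and for 33 in Arg260, where 30.1% and 31.2% of all genes did so. As a background of probes with like signal, 31 of the 37 were among the 6465 genes with the brightest probes, among which 50.3% rose in WT and 52.5% in Arg260 and the median change was 0.24 and 0.29. Of those 31 genes, 28 rose in WT and 28 in Arg260.

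**Figure D1:**
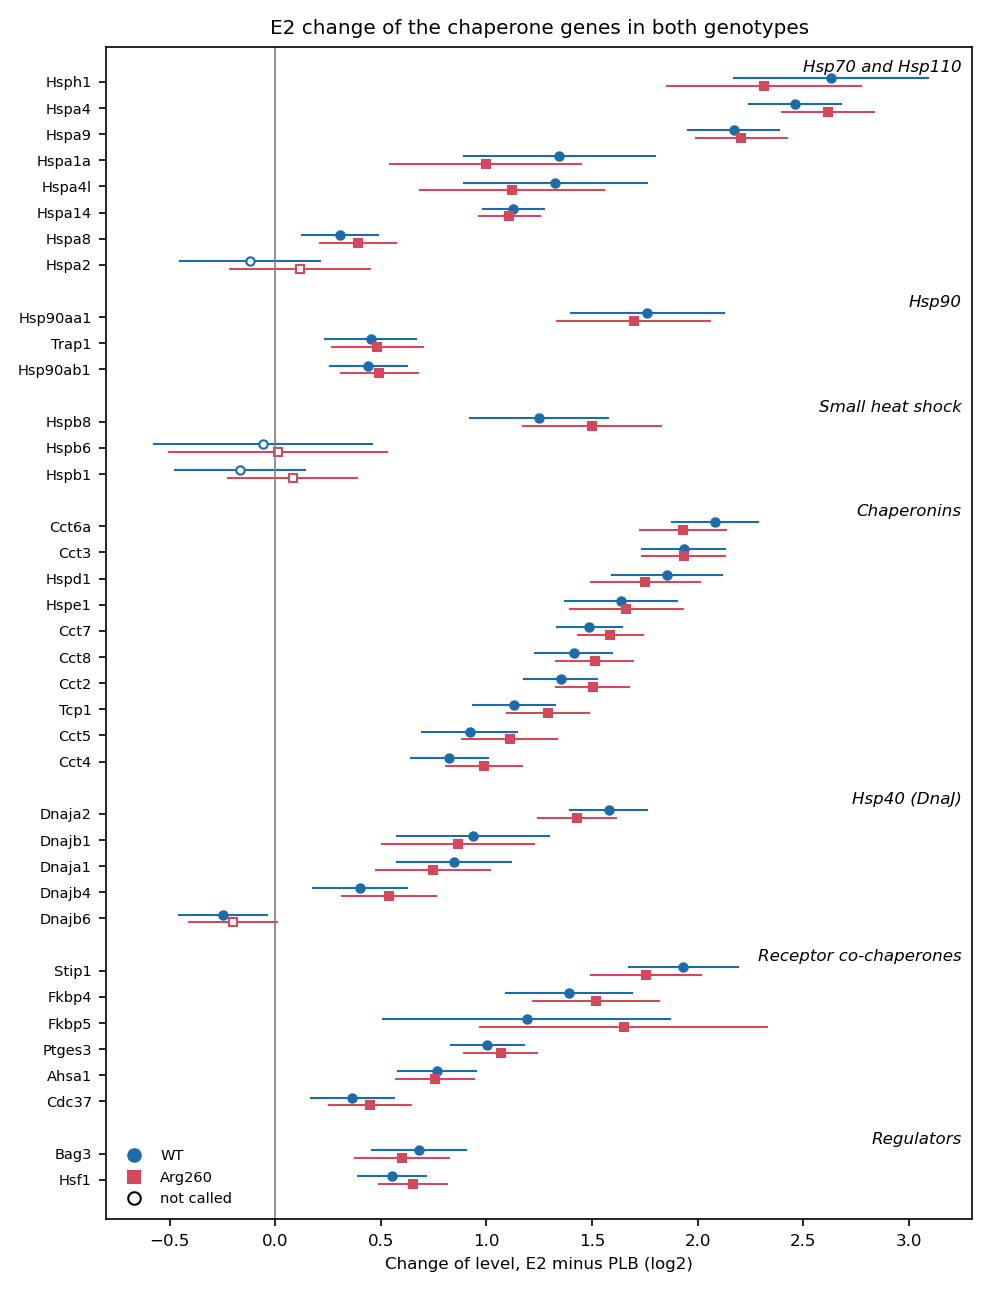
E2 change of the 37 chaperone genes on the log2 scale (x axis; E2 mean minus PLB mean, 4 arrays per group) by family, with 95% confidence intervals as lines, WT as blue circles, Arg260 as red squares and open symbols for changes that were not called. Changes run from -0.25 (Dnajb6) to 2.63 (Hsph1) in WT and from -0.20 (Dnajb6) to 2.62 (Hspa4) in Arg260, and the symbols of both genotypes lie close together in most rows.

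The size of these changes depended on how arrays were scaled, their number little. Under the 3 scalings that give all arrays nearly 1 distribution (quantile normalization, normexp with quantile normalization, and the authors' deposited table, whose 5th to 95th percentiles differ by at most 0.024 between columns), the median change of the chaperone genes was 0.76 to 0.77 in WT and 0.80 to 0.81 in Arg260. The counts were 32 or 33 higher in WT and 31 in Arg260. Among the brightest 6465 genes the share that rose was then 36.5% to 37.0%, and 38.9% to 39.8% fell. Changes of 10 genes in WT and of 12 in Arg260 moved by over 1.5 times under such a scaling, and they are named with their family below. The arrays bore 2 scan dates, 8 arrays each, with 2 arrays of each group on each date. These 2 sets are called slides here, which is an inference from the date. Within slide 1 alone 29 chaperone genes rose in WT and 30 in Arg260, and within slide 2 alone 31 and 30. In WT the call was lost on either slide for Hspa8 and Dnajb6, and on 1 slide for Trap1, Cdc37, Fkbp5 and Dnajb4. In Arg260 it was lost on 1 slide for Hspa1a, Hspa4l, Hspa8, Trap1, Dnajb4 and Cdc37.

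Heat shock genes are textbook targets of heat shock factor 1 (the product of Hsf1), which binds inverted repeats of the letters GAA called heat shock elements. The RefSeq promoter windows of GRCm38.p6, from 250 bases before to 50 bases after a gene's start, were searched on both strands for 3 such units in a row, that is GAA and its complement TTC in alternation with any 2 bases between neighbours, starting with either. Windows exist for 32 of the 38 genes; those without one are Hspa8, Hspa9, Hsp90aa1, Hsp90ab1, Cct4 and Hsf1. The 3-unit motif was found for 4 of the 32 (12.5%), namely Hsph1, Hspd1, Hspe1 and Dnajb6, and for 179 of all 27025 genes with a window (0.662%). Hspd1 and Hspe1 lie on opposite strands. The Hspd1 window with the match overlaps the Hspe1 window by 285 bases, so that these are 1 stretch counted for 2 genes. Another Hspd1 window overlaps that of Hspe1 by 4 bases and has no match. The windows shown are those of Hspe1 (chr1:55087898-55088197, plus strand, the stretch shared with Hspd1), Hsph1 (chr5:149636287-149636586, minus strand) and Dnajb6 (chr5:29735648-29735947, plus strand), each written 5′ to 3′ on the gene's strand with the matched letters in capitals, because the genes they belong to include the largest rise and the only fall in WT.
Hspe1: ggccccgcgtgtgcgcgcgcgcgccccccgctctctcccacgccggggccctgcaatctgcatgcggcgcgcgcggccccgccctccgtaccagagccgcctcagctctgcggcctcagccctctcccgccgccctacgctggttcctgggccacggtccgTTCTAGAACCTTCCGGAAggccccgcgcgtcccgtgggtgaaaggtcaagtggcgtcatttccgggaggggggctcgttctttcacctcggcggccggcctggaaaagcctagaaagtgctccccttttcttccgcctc
Hsph1: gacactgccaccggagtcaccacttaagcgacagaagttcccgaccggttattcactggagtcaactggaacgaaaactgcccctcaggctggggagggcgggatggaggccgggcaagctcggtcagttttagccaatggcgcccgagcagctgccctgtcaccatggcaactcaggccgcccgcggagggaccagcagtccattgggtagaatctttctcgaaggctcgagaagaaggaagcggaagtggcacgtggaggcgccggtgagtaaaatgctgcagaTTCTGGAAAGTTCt
Dnajb6: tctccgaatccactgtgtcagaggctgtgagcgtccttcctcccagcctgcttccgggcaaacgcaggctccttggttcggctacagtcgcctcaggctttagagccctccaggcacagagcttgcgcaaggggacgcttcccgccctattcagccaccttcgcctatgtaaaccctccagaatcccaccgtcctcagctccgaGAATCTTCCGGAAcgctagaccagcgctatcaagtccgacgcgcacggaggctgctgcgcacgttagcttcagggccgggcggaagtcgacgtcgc
The 2 overlapping matches before Hspe1 begin 89 and 84 bases ahead of its start, that of Dnajb6 begins 46 bases ahead of its start, and that of Hsph1 lies 36 bases after its start. A pair of units (GAANNTTC or TTCNNGAA), which every 3-unit match also contains, was found for 17 of the 32 genes (53.1%) and for 17.0% of all genes. The median E2 change in WT was 1.09 over the 16 tested genes with a pair of units and 1.19 over the 15 without. For the 3-unit motif it was 1.75 over the 4 genes with a match and 1.13 over the 27 without, in Arg260 1.71 and 1.11; the 4 include Hspd1 and Hspe1 with their shared stretch and run from -0.25 to 2.63 in WT. A palindromic estrogen response element (GGTCA and TGACC with any 3 bases between), the corresponding element of glucocorticoid and progesterone receptors (GNACA and TGTNC with any 3 bases between) and the amino acid response motif TGATGCAA were each found for 0 of the 32 (0.0740%, 0.537% and 1.03% of all genes), and the E-box CACGTG for 3, Hsph1, Hspd1 and Fkbp5 (9.38%, against 8.09% of all genes). A match describes these letters in this window only.

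In the Hsp70 and Hsp110 family 7 of 8 genes rose in each genotype and 1, Hspa2, was not called. The 2 with the largest WT changes, Hsph1 and Hspa4, are Hsp110 genes, whose products release nucleotide from Hsp70. Hsph1 read 2.90, 2.48, 2.12 and 3.12 on WT PLB replicates 1 to 4 and 5.32, 5.33, 5.13 and 5.36 on WT E2. On the Arg260 arrays it read 2.53, 3.31, 2.48 and 2.87 with PLB and 5.11, 5.23, 4.80 and 5.31 with E2. Every E2 array therefore lay above every PLB array in both genotypes, and the PLB arrays were the more spread (SD 0.44 in WT PLB and 0.10 in WT E2). The change was 2.63 (SE 0.21, adjusted p = 6.28e-08) in WT, or 6.2-fold, and 2.32 (SE 0.21, adjusted p = 2.36e-07) in Arg260. Hspa4, the constitutive Hsp110 gene, read 2.60, 2.56, 2.52 and 2.84 on WT PLB and 5.17, 5.18, 5.14 and 4.87 on WT E2. The Arg260 arrays gave 2.67, 2.51, 2.59 and 2.72 with PLB and 5.41, 5.26, 5.03 and 5.25 with E2. Here the PLB arrays were tight (SD 0.14 and 0.09) and the groups stood far apart. Hspa4 rose 5.51-fold in WT, by 2.46 (SE 0.10, adjusted p = 1.19e-10), and 6.13-fold in Arg260, by 2.62 (SE 0.10, adjusted p = 6.99e-11). These values are those of the brightest of its 3 probes and the highest among them: the WT changes of the 3 ranged from 1.88 to 2.46 and the Arg260 changes from 1.72 to 2.62, and their mean changed by 2.10 in WT and 2.04 in Arg260, below Hspa9.

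Hspa9, the mitochondrial Hsp70 that pulls imported proteins into the matrix, rose by 2.17 in WT and 2.21 in Arg260. The stress-inducible cytosolic gene Hspa1a rose by 1.35 and 0.998, from 0.47 to 0.89 on the WT PLB arrays to 1.65 to 2.21 on the WT E2 arrays. Its value is uncertain, since Hspa1b is a near-identical copy whose RNA its probe could also bind. Hspa4l, a further Hsp110 gene, rose by 1.33 and 1.12, and Hspa14, which works on the ribosome with Dnajc2, by 1.13 and 1.11. In Arg260, Hspa14 gave 0.65 to 0.69 under the 3 distribution-matching scalings. Hspa2, best known from the testis, lay closest to 0 in the family with -0.12 (SE 0.15, adjusted p = 0.524) in WT and 0.12 (SE 0.15, adjusted p = 0.526) in Arg260. Its WT value was -0.37 to -0.40 and called under the 3 distribution-matching scalings, and its Arg260 value turned negative there, at -0.20 to -0.22, without a call.

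Hspa8, the constitutive cytosolic Hsp70 (Hsc70), has 3 probes whose changes differ in size. All lie on the plus strand of chromosome 9 in mouse build mm9, in the order printed, at chr9:40611142-40611201, chr9:40612755-40613050 (a span longer than the probe) and chr9:40613223-40613282. The first 30 of the 60 bases of each are shown, because the size of the Hspa8 change depended on which of them was read.
Hspa8, upstream probe: ttgaggtcaaatcaacagctggagacaccc
Hspa8, middle probe: atcagctggctggataagaaccagagtgca
Hspa8, downstream probe: ttgttccacagggacccaaaacaagtaaca
The downstream probe is the brightest and stands for the gene. It read 7.48, 7.46, 7.33 and 7.47 on WT PLB and 7.62, 7.77, 7.73 and 7.85 on WT E2, a change of 0.31 (SE 0.08, adjusted p = 0.00512), and it changed by 0.39 (SE 0.08, adjusted p = 0.000822) in Arg260. The upstream probe read 3.83, 3.70, 3.44 and 3.85 on WT PLB and 5.04, 5.12, 5.37 and 4.90 on WT E2, with changes of 1.40 (SE 0.15) in WT and 1.56 (SE 0.15) in Arg260. The middle probe changed by 1.15 (SE 0.12) and 1.20 (SE 0.12). All 3 were called in both genotypes with no overlap between PLB and E2 arrays. The mean of the other probes changed by 0.97 more than the brightest in WT and by 0.99 more in Arg260, a difference singled out after its values were seen. The mean over all 3 probes was 0.95 in WT and 1.05 in Arg260. The files do not say which transcripts each probe reads, and the cause was not tested.

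**Figure D2:**
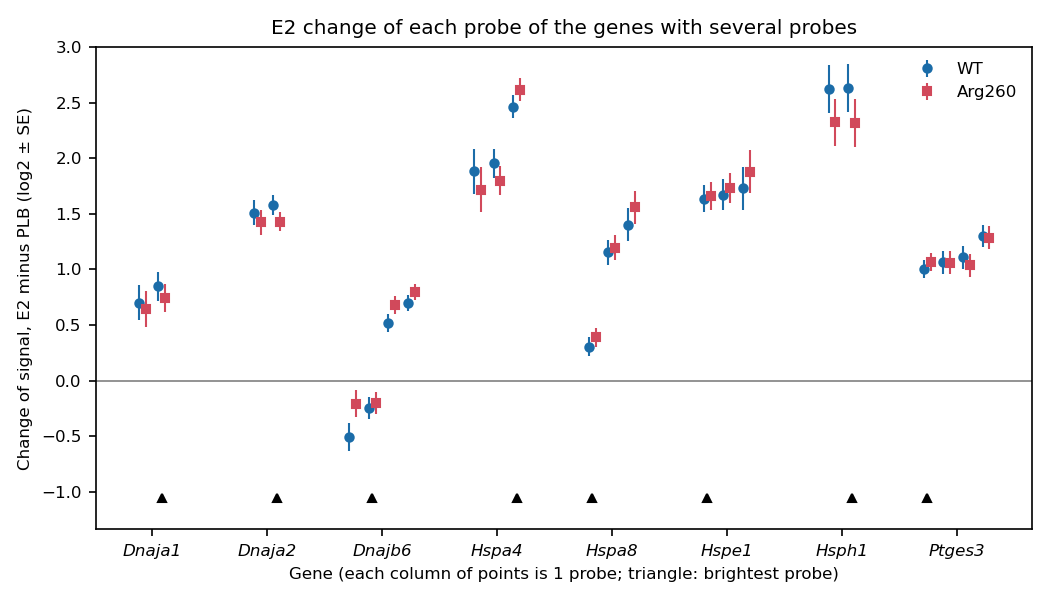
E2 change of each probe (y axis, log2, bars are ± 1 SE of the limma fit) for the 8 genes with more than 1 probe, each pair of a blue circle (WT) and a red square (Arg260) being 1 probe and the triangle marking the brightest, which stands for the gene. All probes of 7 genes agree in their call, with Hspa8 running from 0.31 to 1.40 in WT, and only the 4 probes of Dnajb6 fall on both sides of 0.

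All 3 Hsp90 genes rose in both genotypes, the inducible cytosolic form by the most. Hsp90aa1, the stress-inducible Hsp90 alpha, read 4.76, 4.55, 4.15 and 4.56 on WT PLB and 6.26, 6.25, 6.30 and 6.25 on WT E2. In Arg260 the levels were 4.47, 4.99, 4.18 and 4.61 with PLB and 6.31, 6.40, 5.87 and 6.46 with E2. The WT E2 arrays were tighter (SD 0.02) than the WT PLB arrays (SD 0.25), and no groups overlapped. Its change was 1.76 (SE 0.17, adjusted p = 3.72e-07) in WT, a 3.39-fold rise, and 1.70 (SE 0.17, adjusted p = 5.34e-07) in Arg260. Trap1, the mitochondrial Hsp90, read 0.83, 0.88, 0.72 and 0.77 on WT PLB and 1.15, 1.24, 1.45 and 1.17 on WT E2. Its Arg260 arrays read 0.62, 0.83, 0.88 and 1.07 and 1.47, 1.18, 1.28 and 1.39. The groups stayed apart by a small margin, and the change was 0.45 (SE 0.10, adjusted p = 0.00115) in WT and 0.48 (SE 0.10, adjusted p = 0.000672) in Arg260. Under the 3 distribution-matching scalings the Arg260 change of Trap1 was 0.31 to 0.37. Hsp90ab1, the constitutive Hsp90 beta, was near Trap1, with a change of 0.44 (SE 0.09, adjusted p = 0.000355) in WT and 0.49 (SE 0.09, adjusted p = 0.000128) in Arg260. Per array, the E2 change of Hsp90aa1 exceeded that of Hsp90ab1 by 1.32 in WT and 1.20 in Arg260, 1.26 over both (exact permutation of treatment labels within genotype, two-sided, 4900 assignments, p = 4.08e-04, the smallest they can give). Adjusted over the 6 such differences computed, all of them set after the changes were known, p was 8.16e-04. Each of these 2 genes is read by 1 probe. The 3 probes of Hspa8 ranged from 0.31 to 1.40 in WT, and permuting arrays does not measure such differences between probes.

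Of the 3 small heat shock genes, whose products hold unfolded proteins without using ATP, only Hspb8 rose. It read 1.92, 2.63, 2.13 and 2.15 on WT PLB and 3.56, 3.51, 3.45 and 3.31 on WT E2. With Arg260 it read 2.11, 2.40, 1.75 and 2.30 and 3.74, 3.57, 3.51 and 3.74. No E2 array overlapped a PLB array, although WT PLB replicate 2 was the highest of its group. Hspb8, which works with Bag3 in selective autophagy, changed by 1.25 (SE 0.15, adjusted p = 4.58e-06) in WT and 1.50 (SE 0.15, adjusted p = 6.68e-07) in Arg260. Hspb1 (Hsp27) read 6.72, 6.59, 6.34 and 6.58 on WT PLB and 6.35, 6.34, 6.53 and 6.35 on WT E2, with overlapping groups and a change of -0.17 (SE 0.14, adjusted p = 0.332); the 95% interval in Arg260 ran from -0.23 to 0.39 around 0.08. With quantile normalization the WT value of Hspb1 was -0.30 and was called. Hspb6, abundant in smooth muscle, lay closest to 0 at -0.06 (SE 0.24, adjusted p = 0.853) and 0.01 (SE 0.24, adjusted p = 0.962), with wide spread between arrays (SD 0.36 in WT PLB and 0.54 in Arg260 PLB).

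All 10 chaperonin genes rose in both genotypes: the 8 subunits of the cytosolic CCT ring measured (Tcp1, Cct2, Cct3, Cct4, Cct5, Cct6a, Cct7 and Cct8) and the mitochondrial pair Hspd1 and Hspe1. The median change of the 8 subunits was 1.38 in WT and 1.51 in Arg260, but the probes of the subunits differed in size of change. Each subunit is read by 1 probe, and probes of the same gene can differ too (Hspa8, 0.31 to 1.40 in WT). Differences between subunits and between probes therefore cannot be told apart. Cct6a read 1.34, 1.57, 1.46 and 1.55 on WT PLB and 3.46, 3.66, 3.67 and 3.46 on WT E2. On Arg260 arrays it read 1.53, 1.67, 1.88 and 1.91 with PLB and 3.80, 3.59, 3.66 and 3.67 with E2. The change was 2.08 (SE 0.09, adjusted p = 2.43e-10) in WT, 4.24-fold, and 1.93 (SE 0.09, adjusted p = 4.4e-10) in Arg260. Cct3 read 2.05, 2.03, 1.98 and 2.04 on WT PLB, the tightest group of any chaperone gene there (SD 0.03), and 3.87, 4.02, 4.15 and 3.81 on WT E2. Its Arg260 arrays read 1.89, 2.23, 2.09 and 2.29 and 4.09, 4.05, 3.98 and 4.11. Cct3 changed by 1.94 (SE 0.09, adjusted p = 3.32e-10) and 1.93 (SE 0.09, adjusted p = 3.28e-10), with no overlap of groups.

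At the other end, Cct4 read 3.93, 3.83, 3.83 and 3.88 on WT PLB and 4.56, 4.81, 4.87 and 4.53 on WT E2. The corresponding Arg260 levels were 3.74, 3.90, 3.93 and 3.87 and 4.94, 4.85, 4.72 and 4.89. Groups were again separate, with a change of 0.82 (SE 0.08, adjusted p = 7.47e-07) in WT and 0.99 (SE 0.08, adjusted p = 1.1e-07) in Arg260. Cct5 read 5.30, 5.25, 5.11 and 5.33 on WT PLB, 6.16, 6.28, 6.26 and 5.97 on WT E2, 5.20, 5.26, 4.98 and 5.29 on Arg260 PLB and 6.50, 6.33, 6.04 and 6.30 on Arg260 E2. Cct2 read 4.65, 4.78, 4.74 and 4.88, 6.08, 6.19, 6.22 and 5.97, 4.70, 4.76, 4.61 and 4.85 and 6.31, 6.24, 6.10 and 6.28 in the same order. Both genes kept E2 above PLB on all arrays of a genotype; Cct5 changed by 0.92 in WT and 1.11 in Arg260 and Cct2 by 1.35 and 1.50. The other subunits were Cct7 (1.49 and 1.59), Cct8 (1.41 and 1.51) and Tcp1 (1.13 and 1.29), the founding subunit. Cct6a and Cct4, singled out as the extremes, differed by 1.26 in WT and by 0.94 in Arg260. Under the 3 distribution-matching scalings Cct4 changed by 0.34 to 0.38 in WT and 0.47 to 0.48 in Arg260, Cct5 by 0.59 to 0.64 and 0.71 to 0.76, and Tcp1 by 0.69 to 0.73 and 0.80 to 0.81, all still called.

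The mitochondrial chaperonin pair, which shares the promoter stretch printed above, moved by similar amounts. Hspd1 (Hsp60) ran from 4.10 to 4.45 on WT PLB and from 6.09 to 6.32 on WT E2, and rose by 1.86 (SE 0.12, adjusted p = 6.69e-09) in WT and 1.75 (SE 0.12, adjusted p = 1.19e-08) in Arg260. Hspe1 (Hsp10) ran from 3.72 to 4.11 and from 5.43 to 5.72 in the same groups, and rose by 1.64 (SE 0.12, adjusted p = 3.22e-08) and 1.66 (SE 0.12, adjusted p = 2.74e-08). The E2 change of Hspd1 exceeded that of Hspe1 by 0.22 in WT and 0.09 in Arg260, 0.15 over both (exact permutation, 4900 assignments, adjusted p = 0.00122 over 6 differences). The other probes of Hspe1 changed by 1.67 and 1.73 in WT, less than Hspd1 as well, and by 1.73 and 1.88 in Arg260, the last more than Hspd1. This comparison was also set after the changes were known. Since permuting arrays does not measure differences between probes, it cannot tell the genes from their probes.

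**Figure D3:**
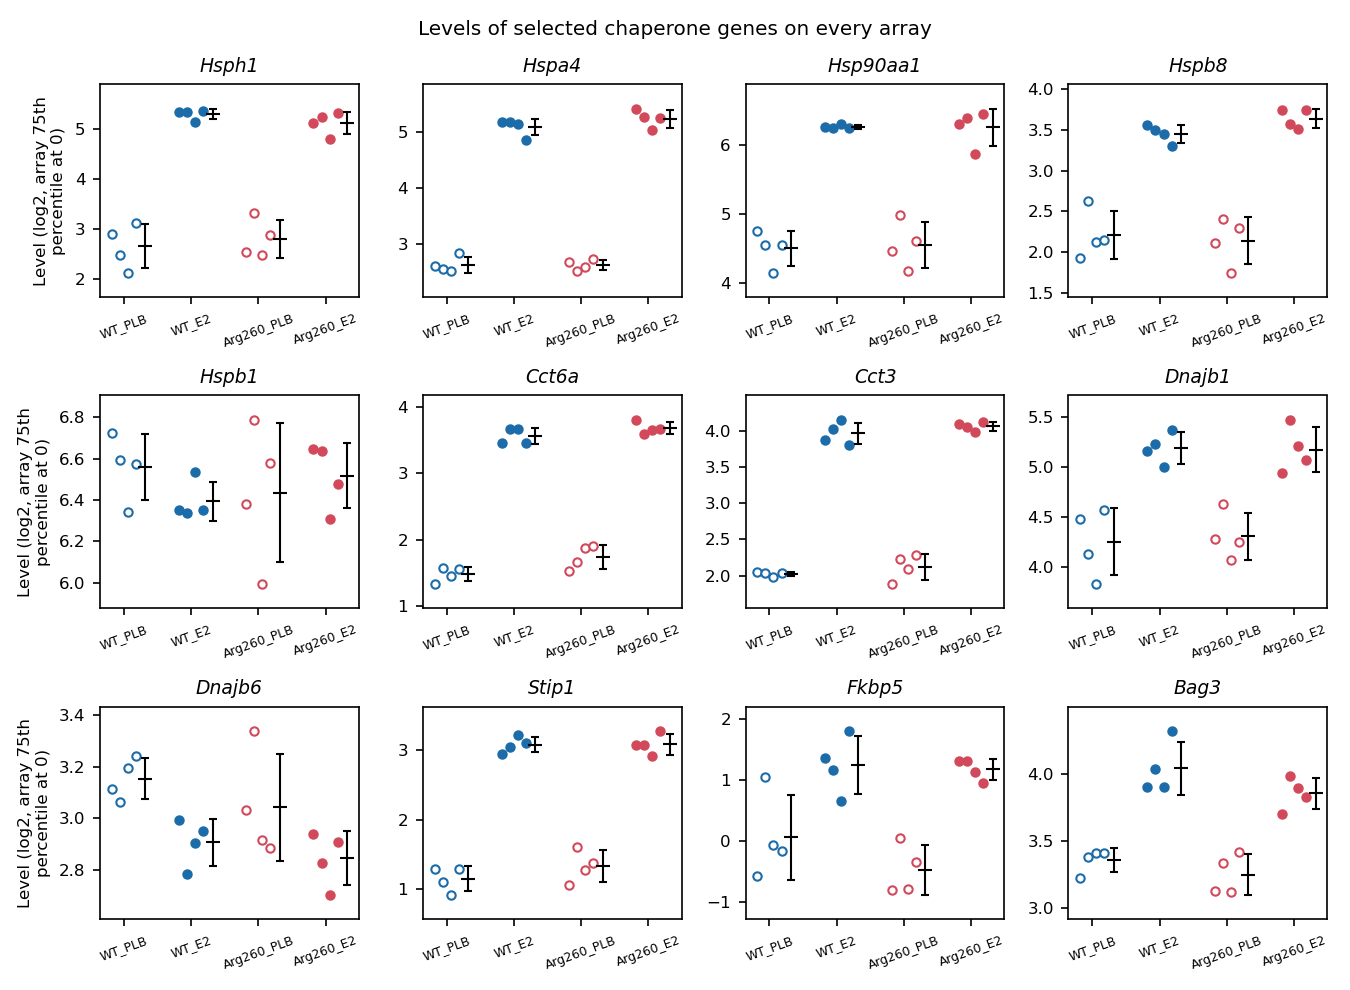
Levels (y axis, log2 with each array's 75th percentile at 0; each panel has its own range) of 12 chaperone genes on every array, with open circles for PLB, filled circles for E2, blue for WT, red for Arg260, and the group mean ± SD (n = 4) in black beside the points. E2 arrays stand above PLB arrays in both genotypes for 9 of the 12; Hspb1 overlaps in both, Fkbp5 overlaps in WT only, and Dnajb6 lies lower with E2, with an overlap in Arg260.

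Among the Hsp40 genes 4 of 5 rose in each genotype, and Dnajb6 went the other way. Dnaja2, a general co-chaperone of cytosolic Hsp70, read 2.22, 2.25, 2.12 and 2.13 on WT PLB and 3.90, 3.75, 3.72 and 3.65 on WT E2. Arg260 arrays gave 2.22, 2.33, 2.04 and 2.44 with PLB and 3.71, 3.78, 3.63 and 3.61 with E2. The groups were far apart, with a change of 1.58 (SE 0.09, adjusted p = 1.12e-09) in WT and 1.43 (SE 0.09, adjusted p = 2.94e-09) in Arg260. Dnajb1, the heat-inducible Hsp40, read 4.48, 4.13, 3.83 and 4.57 on WT PLB and 5.16, 5.22, 4.998 and 5.37 on WT E2. Its levels in Arg260 were 4.28, 4.63, 4.07 and 4.25 and 4.94, 5.47, 5.20 and 5.07. The gap between groups was narrow against the spread of the PLB arrays. Dnajb1 changed by 0.94 (SE 0.17, adjusted p = 0.000185) in WT and 0.86 (SE 0.17, adjusted p = 0.000367) in Arg260. Under the 3 distribution-matching scalings it changed by 0.48 to 0.50 in WT, and in Arg260 by 0.32 to 0.35 with no call (highest adjusted p = 0.0927). Dnaja1, which also loads steroid receptors onto Hsp70, rose by 0.85 and 0.75 (0.35 to 0.45 in Arg260 under those scalings), and Dnajb4 by 0.40 and 0.54.

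Dnajb6, a suppressor of protein aggregation made in a long and a short form, is read by 4 probes that went opposite ways. By position in mm9, a pair of them lies upstream at chr5:30077544-30078952 (a span longer than the probe) and chr5:30080099-30080158, under one transcript record, and a pair downstream at chr5:30112855-30112911 and chr5:30112861-30112920, under another. The first 30 of the 60 bases of each are shown because the sign of the change depended on the pair; capitals mark letters that both downstream probes share, 51 in all over their full lengths, so that these read nearly the same site.
Dnajb6, upstream probe 1: gaagttcaaacaagtagctgaggcatatga
Dnajb6, upstream probe 2: agtccatttgagtttggcttcacattccgg
Dnajb6, downstream probe 1: gaccctCAAGGAGGAATGTATTTTAGTGCT
Dnajb6, downstream probe 2: CAAGGAGGAATGTATTTTAGTGCTACTGAC
Downstream probe 1, the brightest, stands for the gene and read 3.11, 3.06, 3.19 and 3.24 on WT PLB and 2.99, 2.78, 2.90 and 2.95 on WT E2. In Arg260 it read 3.03, 3.34, 2.91 and 2.88 and 2.94, 2.83, 2.70 and 2.91. The groups did not overlap in WT but did in Arg260, and the change was -0.25 (SE 0.10, adjusted p = 0.0386) in WT and -0.20 (SE 0.10, adjusted p = 0.0875) in Arg260. Downstream probe 2 changed by -0.51 (SE 0.12) in WT and -0.21 (SE 0.12) in Arg260. Upstream probe 1 read -0.07, -0.01, 0.04 and -0.06 on WT PLB and 0.67, 0.56, 0.46 and 0.28 on WT E2, higher with E2 on every array, and changed by 0.52 (SE 0.08) in WT and 0.68 (SE 0.08) in Arg260. Upstream probe 2 changed by 0.70 (SE 0.07) and 0.80 (SE 0.07). The upstream pair's mean change exceeded the downstream pair's by 0.99 in WT and 0.94 in Arg260, a difference singled out after the values were seen. The WT fall of the standing probe lost its call under normexp background (adjusted p = 0.0534), with no filter on dim probes (0.0612), within either slide, and without any 1 of WT PLB replicates 1, 3 or 4 or WT E2 replicates 2, 3 or 4 (adjusted p up to 0.109). It was -0.55 to -0.57 in WT and -0.56 to -0.59 in Arg260, called in both, under the 3 distribution-matching scalings, and with the mean over all 4 probes the change was 0.12 in WT, with no call, and 0.27 in Arg260, a called rise (limma adjusted p = 0.00311). What these probes read in terms of the long and short forms was not tested.

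All 6 co-chaperones of steroid receptors rose in both genotypes. Stip1 (Hop), the adaptor that bridges Hsp70 and Hsp90, read 1.29, 1.11, 0.92 and 1.28 on WT PLB and 2.95, 3.05, 3.22 and 3.11 on WT E2. Arg260 levels were 1.06, 1.61, 1.27 and 1.38 with PLB and 3.07, 3.07, 2.92 and 3.28 with E2. With wide gaps between groups, it changed by 1.93 (SE 0.12, adjusted p = 4.49e-09) in WT, 3.82-fold, and by 1.76 (SE 0.12, adjusted p = 1.19e-08) in Arg260. Fkbp4 (FKBP52), the immunophilin that favours hormone binding by several steroid receptors, read 1.42, 1.103, 0.96 and 1.40 on WT PLB and 2.51, 2.48, 2.81 and 2.63 on WT E2. The Arg260 arrays read 0.92, 1.51, 1.09 and 1.49 and 2.75, 2.81, 2.74 and 2.79 (SD 0.03). Fkbp4 changed by 1.39 (SE 0.14, adjusted p = 5.61e-07) and 1.52 (SE 0.14, adjusted p = 2.14e-07). Fkbp5 (FKBP51), the rival immunophilin and a textbook target of progesterone and glucocorticoid receptors, read -0.57, 1.06, -0.07 and -0.16 on WT PLB and 1.37, 1.18, 0.66 and 1.81 on WT E2. In Arg260 it read -0.80, 0.06, -0.79 and -0.34 and 1.32, 1.31, 1.13 and 0.96. WT PLB replicate 2 lay above WT E2 replicate 3, so that the WT groups overlapped, while those of Arg260 did not. The change of Fkbp5 was 1.19 (SE 0.32, adjusted p = 0.00422) in WT and 1.65 (SE 0.32, adjusted p = 0.000333) in Arg260, and leaving out single arrays gave 0.98 to 1.52 in WT. Fkbp5 and Fkbp4 did not differ in their E2 change beyond the spread of the arrays (difference -0.20 in WT and 0.13 in Arg260, -0.04 over both, exact permutation, adjusted p = 0.901), which does not show that they changed alike.

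Ptges3 (p23), which closes the Hsp90 clamp on a bound receptor, rose by 1.004 (SE 0.08, adjusted p = 5.95e-08) in WT and 1.07 (SE 0.08, adjusted p = 3.14e-08) in Arg260, and its 4 probes ranged from 1.004 to 1.30 and from 1.04 to 1.29. Ahsa1, the activator of the Hsp90 ATPase, rose by 0.77 and 0.76. Cdc37, which brings protein kinases to Hsp90, was the closest to 0 of the 6, at 0.36 (SE 0.09, adjusted p = 0.00288) and 0.45 (SE 0.09, adjusted p = 0.000564). In proportion to their size, these 3 changes moved most with the scaling among the 6: under the 3 distribution-matching scalings Ptges3 changed by 0.54 to 0.60 in WT and 0.54 to 0.58 in Arg260, and Ahsa1 by 0.35 to 0.41 and 0.27 to 0.30. Cdc37 then changed by 0.18 to 0.20 in WT, where quantile normalization lost the call (adjusted p = 0.0532), and by 0.21 to 0.25 in Arg260.

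Both regulators rose by less than the median of the chaperone genes. Bag3, a nucleotide exchange factor that couples Hsp70 to Hspb8, read 3.23, 3.38, 3.41 and 3.41 on WT PLB and 3.90, 4.04, 3.90 and 4.32 on WT E2. With Arg260 the levels were 3.13, 3.33, 3.12 and 3.42 and 3.70, 3.98, 3.89 and 3.83. No groups overlapped, and the change was 0.68 (SE 0.10, adjusted p = 4.29e-05) in WT and 0.60 (SE 0.10, adjusted p = 0.000134) in Arg260. Under the 3 distribution-matching scalings Bag3 changed by 0.29 to 0.30 in WT, and by 0.14 to 0.19 in Arg260 with no call (highest adjusted p = 0.245). Hsf1 read 2.17, 2.18, 2.05 and 2.18 on WT PLB and 2.84, 2.70, 2.66 and 2.61 on WT E2. Its Arg260 arrays read 2.09, 2.23, 2.02 and 2.15 and 2.89, 2.82, 2.64 and 2.73. Hsf1 levels were tight in every group and did not overlap, with a change of 0.55 (SE 0.08, adjusted p = 1.28e-05) in WT and 0.65 (SE 0.08, adjusted p = 2.39e-06) in Arg260, or 0.27 to 0.29 and 0.32 to 0.34 under those scalings. Hsf1 is regulated mainly as a protein, which these arrays do not measure.

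The Arg260 form was compared with WT in 3 ways, each time with 0 of 37 chaperone genes and 0% of the 25862 genes called by limma. For the difference between the genotypes' E2 responses (Arg260 minus WT), 0 of the 37 chaperone genes and 961 of all genes had an unadjusted p under 0.05. The differences ran from -0.35 (Hspa1a) to 0.46 (Fkbp5) with a median of 0.05, and their 95% intervals extended 0.20 to 0.96 to either side (median 0.31). The data therefore leave room for a difference of up to 1.42 for Fkbp5, and of up to 0.51 for Cct5, the highest bound among the CCT subunits. In the other direction they leave room for a difference down to -0.99 for Hspa1a, the lowest bound of the 37. The 3 smallest unadjusted p belonged to CCT subunits: Cct4 (0.16, SE 0.12, unadjusted p = 0.193), Cct2 (0.15, SE 0.11, unadjusted p = 0.203) and Cct5 (0.19, SE 0.15, unadjusted p = 0.224). The smallest adjusted p among the 37 was 0.999781 in limma. In PLB alone 638 genes and 1 chaperone gene, Cct6a (0.27 higher in Arg260, unadjusted p = 0.0141), had an unadjusted p under 0.05 in limma. In E2 alone it was 1900 genes and 1 chaperone gene, Cct7 (0.19 higher in Arg260, unadjusted p = 0.0189). When single arrays were left out, the difference of responses ran from 0.13 to 0.67 for Fkbp5, the gene with the widest interval, and from -0.55 to -0.19 for Hspa1a.

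The wider chaperone network and genes of steroid hormone action were read from 8 lists with 106 genes, of which 104 were tested. Of the 104, 63 (60.6%) rose and 19 (18.3%) fell in WT, where the median change was 0.45. The Arg260 counts were 65 (62.5%) and 19 (18.3%), with a median of 0.52. These totals include 12 genes of progesterone and glucocorticoid action that are not chaperones, of which 3 rose and 6 fell in each genotype. Among all genes, 31.9% rose and 31.7% fell in WT, and 33.6% and 30.7% in Arg260. All 10 genes of Hsp70 nucleotide exchange and chaperone-linked ubiquitination rose in WT and 9 in Arg260, with the largest WT changes in Bag2 (1.82 in WT and 1.63 in Arg260), the mitochondrial exchange factor Grpel1 (1.12 and 1.12) and Hspbp1 (1.08 and 1.14). Of 22 further Hsp90 co-chaperones 14 rose and 3 fell in each genotype, with the largest WT changes in Tomm70a, the receptor for chaperone-bound precursors on the mitochondrial surface (1.61 and 1.61), Cacybp (1.53 and 1.35) and Nudcd2 (1.47 and 1.38). Among 8 mitochondrial proteases and unfoldases 6 rose in WT and 7 in Arg260, with Afg3l2 (1.13 and 1.30), Clpp (1.01 and 1.15) and Lonp1 (0.62 and 0.77) having the largest WT changes, and 1 fell in each.

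Prefoldin, which hands actin and tubulin to CCT, and the cofactors of CCT and tubulin folding were less uniform. Of their 17 genes 9 rose in WT and 10 in Arg260, while 3 fell in either genotype. For comparison, 31.9% of all genes rose and 31.7% fell in WT, and 33.6% and 30.7% in Arg260. The largest WT changes were those of Pfdn4 (1.60 in WT and 1.42 in Arg260), Tbcb (1.32 and 1.35) and Pdrg1 (1.23 and 1.44). Cct6b, a paralogue of Cct6a picked out after its values were seen, fell by 1.16 in WT and by 1.02 in Arg260. Of 21 other Hsp40 genes 15 rose and 2 fell in each genotype. Dnajc2, the ribosome-bound partner of Hspa14, rose by 1.80 and 1.58, while Hscb, the iron-sulphur cluster co-chaperone of Hspa9, fell by 2.09 in WT and by 2.11 in Arg260. None of the WT E2 arrays had Dnajc28 well above background, and its level was at least 6.89-fold lower there than on WT PLB (limma adjusted p = 1.13e-09). On Arg260 E2 it was well above background on 1 of 4 arrays.

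Further members of the Hsp70, Hsp110 and small heat shock families went both ways: of 9 genes, 4 rose in WT and 5 in Arg260, and 3 fell in either. With so few genes, the WT shares (44.4% higher, 33.3% lower) are near those of all genes (31.9% and 31.7%). Hspb7, a small heat shock protein of muscle that binds filamin, rose by 2.54 and 2.23, and Hspa13 by 1.03 and 1.14, whereas Hspa12a, well above background on 3 of 4 WT E2 and 2 of 4 Arg260 E2 arrays, fell by 1.48 and by 1.25. Among 5 heat shock factor genes and their binders 2 rose and 1 fell (40% and 20%), again near the shares of all genes. Hsf5 rose by 3.12 and 3.16 from a level above background on only 2 of 4 PLB arrays in each genotype. Hsbp1 rose by 0.37 and 0.37, and Hsf4 fell by 0.77 and by 0.73. The last list holds 12 genes of progesterone and glucocorticoid action, the company in which Fkbp5 is usually listed, with the receptor genes Pgr and Nr3c1 among them. Of these 12, 3 rose and 6 fell in each genotype (25% and 50%). Pgr, which encodes the progesterone receptor, rose by 2.12 and 2.37, Zbtb16 fell by 2.42 and by 1.86, and Klf15 fell by 1.86 and by 1.68.

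**Figure D4:**
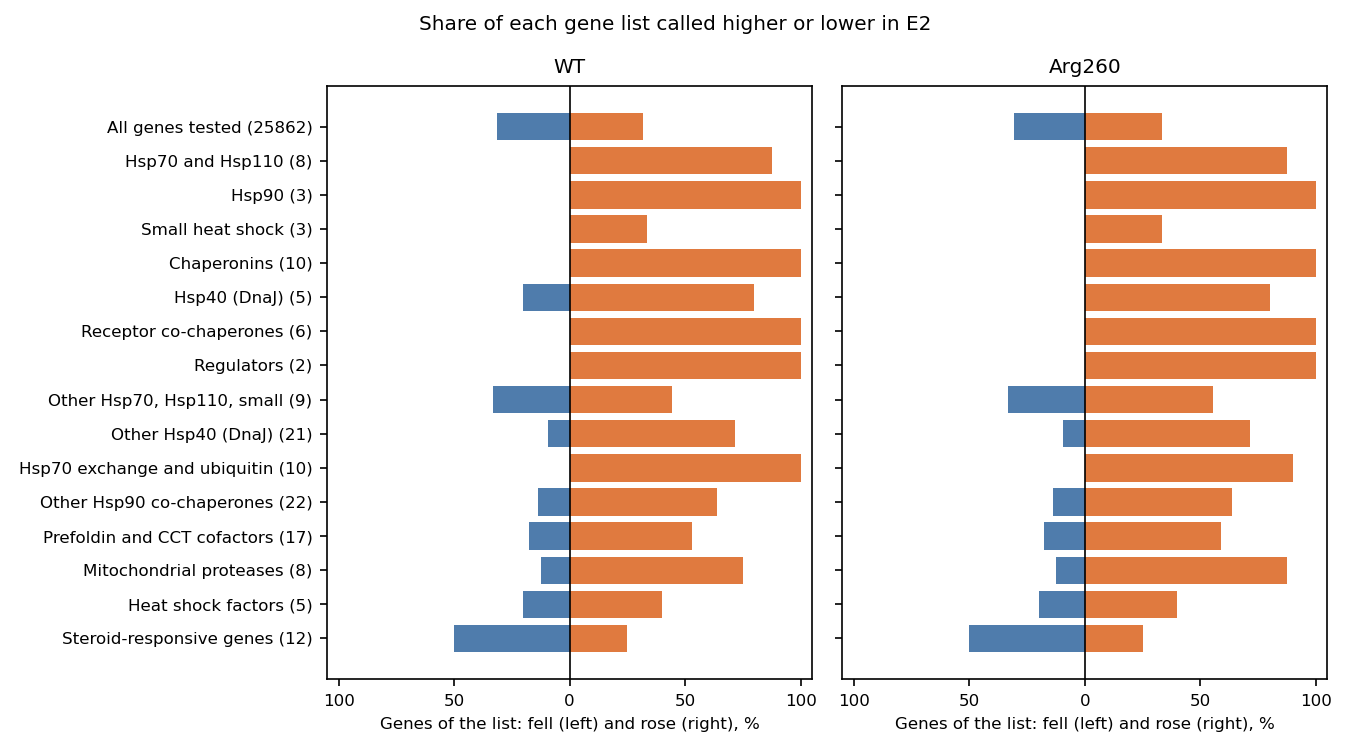
Share of each gene list called higher (orange, to the right) or lower (blue, to the left) with E2, in percent (x axis), in WT and in Arg260, for all genes tested, the 7 chaperone families and the 8 further lists, with the number of genes tested in brackets. All genes split evenly (31.9% higher and 31.7% lower in WT); chaperonins, Hsp90 and receptor co-chaperones are at 100% higher in both genotypes, and the steroid-responsive genes have more falls than rises.

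The spread between PLB arrays differed widely among the chaperone genes. The SD between WT PLB arrays was 0.44 for Hsph1, 0.34 for Dnajb1, 0.25 for Hsp90aa1 and 0.70 for Fkbp5, against 0.03 for Cct3 and 0.05 for Cct4. In Arg260 PLB, replicate 2 was the highest array for Hsph1, Hspa1a, Hspa4l, Hsp90aa1 and Dnajb1 and replicate 3 was the lowest for each of them. WT PLB replicate 2 and Arg260 PLB replicate 3 stand apart from their groups over all genes (root mean square deviation from the mean of the other arrays 0.617 and 0.569, against 0.328 to 0.494 for the remaining 14 arrays). Without both, 33 chaperone genes rose in WT and 33 in Arg260, Dnajb6 was the only called fall (WT), and the median change was 1.16 in WT and 1.04 in Arg260. Mean levels of some lists of cell type markers differed between PLB and E2 arrays as well. Their counts stand beside 31.7% of all genes that fell in WT and 30.7% in Arg260. The mean level of 10 stromal markers was 4.03 to 4.75 on WT PLB and 3.13 to 4.13 on WT E2 arrays, with 6 of the 10 lower in each genotype. That of 8 adipocyte markers was 0.63 to 2.48 and -4.19 to -0.28, with 8 of the 8 lower in WT and 3 in Arg260. Smooth muscle markers read 3.72 to 4.18 and 4.12 to 4.59, and epithelial markers 1.84 to 2.26 and 1.92 to 2.15. The 8 endothelial markers read 1.17 to 1.36 on WT PLB and 0.79 to 0.83 on WT E2. In WT 5 of the 8 were lower and 1 higher, and in Arg260 2 were lower and 2 higher. The 8 leukocyte markers read 1.45 to 1.59 and 1.04 to 1.23 in WT PLB and WT E2. In each genotype 3 of the 8 were lower, near the share of all genes, and 1 was higher. Leukocyte markers read 3.29 on Arg260 PLB replicate 3 and 1.40 to 1.66 on the other Arg260 PLB arrays. The part of these shifts in the chaperone changes was not tested.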

How the data were processed

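RNA of 16 mouse uterus samples was hybridised to one-colour Agilent arrays. Per the file headers, spots were quantified by the authors with Agilent Feature Extraction 10.10.1.1, and its deposited processed signal (an intensity, corrected for background) was used. Levels are its log2 value less the log2 of the array's own 75th percentile. Control spots, outlier-flagged spots and probes well above background on fewer than 4 of 16 arrays were left out, spots of a probe were averaged, and the brightest probe stood for a gene. Gene names are those of the files, updated through RefSeq (GRCm38.p6, names only); probe positions are mm9, and the files do not say whether they fall in coding sequence or UTR.

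A limma (3.58.1, R 4.3.3) model of 4 group means over all 16 arrays gave 5 comparisons, with Benjamini-Hochberg adjustment over 25862 genes and a threshold of 0.05; it was tested on simulated data. The authors' deposited table of log2 values, with background correction and scaling not given in the sources used here, was an alternative: its column medians were all 8.69, its 5th to 95th percentiles differed by at most 0.024 between columns, and each column correlated best with its own array (lowest 0.990). Other alternatives were the background, quantile normalization, the dim-probe filter, probe averaging, slides, the replicate number as a block and leaving out arrays. The labels state no pairing of arrays by replicate number, and no block was used in the main fit. The number of arrays limits the precision.

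Members and lists were chosen with earlier results of these data known. All 37 measured genes are named. Values on every array are given, per family, for the 2 called genes with the largest WT change, for called genes against their family's majority or called in 1 genotype, and for the 3 smallest interaction p-values. The gene closest to 0 per family and the 3 largest called changes of each further list are named as well. Hspb1, Fkbp5 and the probes of Hspa8 and Dnajb6 were added after their values were seen.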

Additional observations from a re-analysis of the deposited data

Results flagged for a closer look

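Single arrays stood apart from the other 3 of their group, by the gap to the nearest array relative to the group's range (Dixon's ratio past its 95% critical value), in 9 of the 148 combinations of a chaperone gene and a group. Chance gives about 1 in 20. Replicate 3 accounted for 8 of the 9. In WT E2, replicate 3 was low for Hspa4l at 1.99 (others 2.37 to 2.45) and Hsph1 at 5.13 (others 5.32 to 5.36), and high for Hspb1 at 6.53 (others 6.34 to 6.35) and Hspe1 at 5.72 (others 5.43 to 5.46). In Arg260 E2, replicate 3 was low for both genes of the mitochondrial chaperonin, at 5.94 for Hspd1 (others 6.25 to 6.31) and 5.31 for Hspe1 (others 5.71 to 5.77). In WT PLB, replicate 3 was low for Hspa8 at 7.33 (others 7.46 to 7.48) and Hsf1 at 2.05 (others 2.17 to 2.18). The remaining one was replicate 4 of WT E2, low for Hspa4 at 4.87 (others 5.14 to 5.18). Leaving out any one of these arrays changed the call of none of these genes.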

How the results depend on the processing

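The counts of chaperone genes called were within 1.5 times of the reported ones under every alternative run, at 29 to 35 for WT and 30 to 34 for Arg260, with 0 called between genotypes. Leaving out single arrays gave 33 to 34 in WT and 33 to 34 in Arg260. The replicate number as a replicate block gave 33 called in WT, with Dnajb6 lost (limma adjusted p = 0.0601), and 33 in Arg260. Deviations of same-numbered arrays correlated at -0.11 to 0.26 (median 0.03). Replicates 1 and 2 were on slide 1, and 3 and 4 on slide 2. Spots well above background were 68.5% to 70.4% on arrays of replicate 1 and 62.5% to 65.7% on those of replicate 2. They were 65.1% to 70.6% for replicate 3 and 61.6% to 64.5% for replicate 4, so the numbers went with this share. Changes of sign fell on values that were not called, apart from Dnajb6 in WT. With the mean of its probes Dnajb6 was 0.12 in WT and 0.27 in Arg260, there a called rise (adjusted p = 0.00311). Hspa2 was 0.14 within slide 1 in WT and -0.23 to 0.050 without single arrays. In Arg260 it was -0.20 with quantile normalization, -0.22 with normexp and quantile normalization, -0.21 in the deposited table and -0.10 within slide 1. Hspb1 in Arg260 was -0.10, -0.087 and -0.086 under the same 3 scalings, -0.063 without the pair of arrays that stand apart (WT PLB replicate 2 and Arg260 PLB replicate 3, an alternative chosen after seeing the data) and -0.063 to 0.20 without single arrays. Hspb6 in WT was 0.088 within slide 1, 0.0017 without that pair and -0.22 to 0.051 without single arrays. Hspb6 in Arg260 was -0.16, -0.12 and -0.18 under the 3 scalings, -0.21 without that pair and -0.21 to 0.23 without single arrays. The difference of the genotypes' responses for Hspa1a was 0.035 within slide 2. Fkbp5 minus Fkbp4 was 0.14, 0.071 and 0.066 under the 3 scalings, 0.12 without that pair and -0.17 to 0.15 without single arrays. The cause of these shifts was not tested. The median of all genes moved by at most 0.08 under any alternative. With 4 arrays a group, the unadjusted 95% intervals of the difference between the genotypes' responses had a median half-width of 0.31.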
